A study of Mus musculus with 12 samples.

Results

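The genes described are Hoxb2 to Hoxb9, which lie side by side in the HoxB cluster on chromosome 11, and Hoxa7 of the HoxA cluster on chromosome 6. These 9 genes were chosen by name, with their changes in these libraries already known, so their differences from control are a description, and the calls made on them against control are given once, beside the share of all genes called, with nothing read from them. Of the 9 genes, 8 were listed with counts, out of 18929 genes listed for either mutant. All 8 were listed for the Hdac1 comparison, 5 for the Hdac2 comparison (Hoxb2, Hoxb3, Hoxb4, Hoxb6 and Hoxa7), and Hoxb9 for neither.

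Poly(A)-selected RNA was sequenced from enteroids, which are three-dimensional epithelial cultures grown from intestinal crypts, here of the murine jejunum, after 5 days in ENR medium. The 12 libraries fall into 3 groups of 4. Control enteroids carried the villin-Cre transgene, which drives Cre recombinase in the intestinal epithelium, and Hdac1-deficient or Hdac2-deficient enteroids came from villin-Cre mice with floxed alleles of Hdac1 or Hdac2, the genes of a pair of closely related histone deacetylases, on a mixed C57BL/6 J, 129SV and CD1 background. The crypts of a genotype came from 1 mouse, which means that the 4 libraries need not be separate mice, that the spread between them may be technical, and that genotype cannot be told apart from the mouse or the line grown from it. Library depth lay between 20693200 and 30658628 counts on genes. In the check of the targeted genes, Hdac1 stood at 90.5 ± 2.87 CPM (counts relative to the library size; SD, n = 4) in control and 4.23 ± 0.841 CPM in Hdac1-deficient enteroids, and Hdac2 stood at 137 ± 4.39 CPM in control and 75.9 ± 2.84 CPM in Hdac2-deficient enteroids. All 7 markers of epithelium were listed, with sums of 6210 to 6440 CPM (control), 6830 to 7020 CPM (Hdac1-deficient) and 7990 to 8290 CPM (Hdac2-deficient).

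Hox genes encode homeodomain transcription factors that give cells their position along the body axis. They sit in 4 clusters in the mouse, and the order of the genes along a cluster follows the order in which they are switched on, from the 3′ genes (low numbers, anterior) to the 5′ genes (high numbers, posterior). Polycomb complexes keep silent stretches of a cluster repressed, Trithorax complexes keep active stretches open, and Cdx factors and retinoic acid are among the known inputs. In the gut, Hox genes are best known from the mesenchyme.

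On GRCm38, the HoxB cluster runs from 96194316 to 96368256 of chromosome 11, all 10 of its Hox genes being on the plus strand. Hoxb9 (96271457 to 96276595), Hoxb8 (96281905 to 96285315), Hoxb7 (96286623 to 96290162), Hoxb6 (96292476 to 96301569) and Hoxb5 (96303336 to 96306121) form its 5′ part among the genes described. Hoxb4 (96318267 to 96321638), Hoxb3 (96323326 to 96347930) and Hoxb2 (96350525 to 96354012) form its 3′ part. The annotation leaves 12.1 kb between Hoxb5 and Hoxb4, against 1.3 to 5.3 kb between the other neighbours from Hoxb9 to Hoxb2. Hoxa7 lies on the minus strand of chromosome 6 from 52214491 to 52221854.

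Members of the Hox family share homeobox sequence, so the longest coding stretches that a gene shares with another Hox gene bear on whether reads could be assigned to the wrong gene. They are shown for Hoxb7 and Hoxb8, genes that were higher in Hdac1-deficient enteroids, with the 13 bases common to both runs in capitals.
Hoxb7, shared with Hoxb6: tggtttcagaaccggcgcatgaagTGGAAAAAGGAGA
Hoxb8, shared with Hoxd8: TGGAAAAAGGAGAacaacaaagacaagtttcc
These runs are 37 and 32 bases long, shorter than a read of 100 bases, and between 0% (Hoxb2) and 1.95% (Hoxb4) of the 30-base windows of the 9 genes occur in another gene. Hoxb6 and Hoxb9 are the exceptions by length, sharing runs of 130 and 129 bases with Gm11027. Whether these runs lie in coding sequence was not determined.

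Promoter sequences, from 250 bases before to 50 bases after the start, were matched for 3 of the 9 genes in RefSeq (GRCm38.p6). They are shown because Hoxb8 was higher in Hdac1-deficient enteroids while Hoxb4 and Hoxa7 were lower. The motifs searched on both strands were TATAAA and CCAAT as well as AGGTCA, and capitals mark each match.
Hoxb8, chr11:96281655-96281954, plus strand: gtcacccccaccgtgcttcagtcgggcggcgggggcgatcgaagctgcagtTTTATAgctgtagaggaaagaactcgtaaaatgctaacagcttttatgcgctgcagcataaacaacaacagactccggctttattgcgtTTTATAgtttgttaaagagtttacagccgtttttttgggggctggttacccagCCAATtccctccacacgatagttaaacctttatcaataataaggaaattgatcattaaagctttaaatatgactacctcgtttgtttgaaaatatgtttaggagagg
Hoxb4, chr11:96318017-96318316, plus strand: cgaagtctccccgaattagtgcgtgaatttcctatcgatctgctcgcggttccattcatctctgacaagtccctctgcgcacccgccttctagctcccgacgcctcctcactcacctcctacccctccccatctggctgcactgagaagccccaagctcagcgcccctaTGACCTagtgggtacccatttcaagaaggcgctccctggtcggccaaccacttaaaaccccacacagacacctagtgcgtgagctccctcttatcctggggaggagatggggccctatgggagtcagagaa
Hoxa7, chr6:52218524-52218823, minus strand: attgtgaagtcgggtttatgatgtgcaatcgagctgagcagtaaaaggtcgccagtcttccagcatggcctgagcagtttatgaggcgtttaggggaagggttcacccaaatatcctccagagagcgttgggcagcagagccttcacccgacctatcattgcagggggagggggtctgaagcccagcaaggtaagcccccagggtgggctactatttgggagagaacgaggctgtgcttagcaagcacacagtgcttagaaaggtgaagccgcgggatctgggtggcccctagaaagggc
The window of Hoxb8 held TATAAA on the opposite strand at positions -199 and -110 from the start and CCAAT at -57. That of Hoxb4 held AGGTCA on the opposite strand at -81, and that of Hoxa7 held none of the 3 letter strings. Among 32851 promoters of this length, TATAAA was found in 13.6%, CCAAT in 37.4% and AGGTCA in 16.3%. The Hoxb4, Hoxb8 and Hoxa7 windows held 14, 13 and 9 CpG dinucleotides, against a median of 7 over all promoters, and their GC content was 58.0%, 42.3% and 55.7%, against a median of 52.7%. Such matches describe letters in these windows and are not evidence of binding.

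In control enteroids, counts in HoxB came almost wholly from the 3′ genes. Hoxb2, Hoxb3 and Hoxb4 together held 637 counts over the 4 control libraries, and Hoxb5, Hoxb6, Hoxb7 and Hoxb8 together held 9. In Hdac1-deficient enteroids the 3′ genes held 170 counts and the 5′ genes stood at 253. In Hdac2-deficient enteroids the 3′ genes held 125 counts, and of the 5′ genes only Hoxb6 was listed, with 24.

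**Figure D1:**
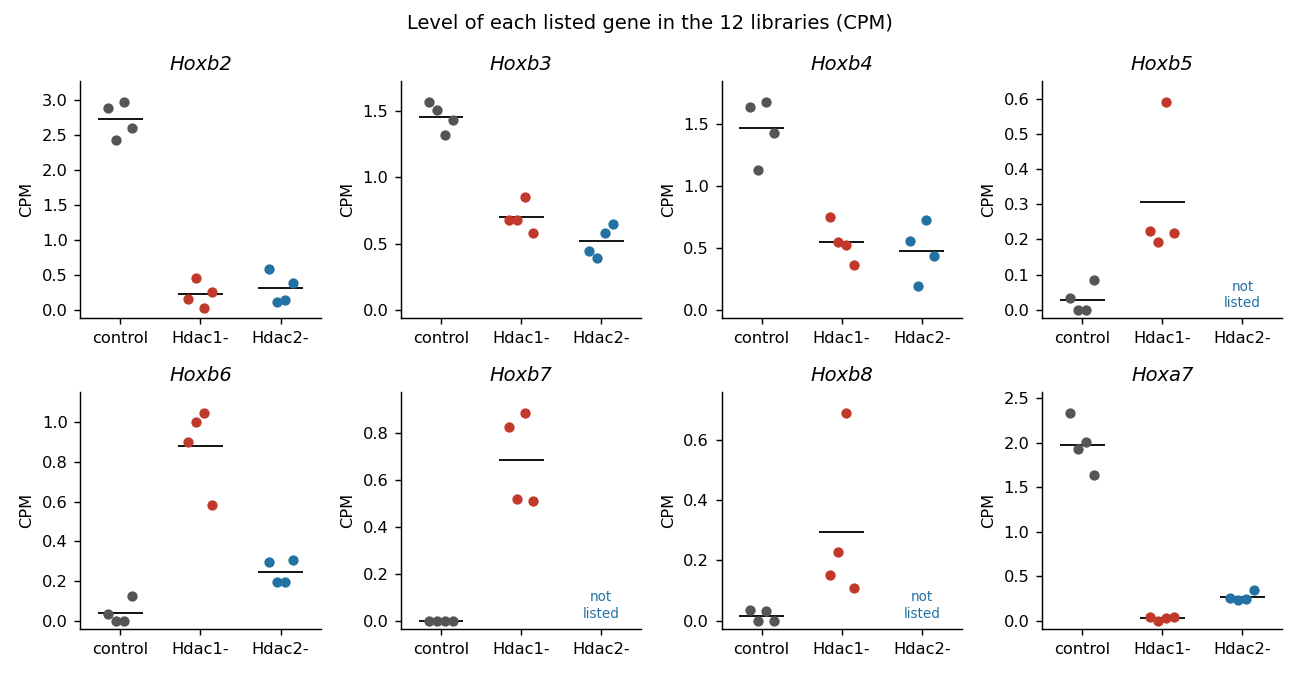
Level of each of the 8 listed genes in CPM on the vertical axis, in the 4 control, 4 Hdac1-deficient and 4 Hdac2-deficient libraries. Each point is 1 library, the line is the mean of the group, and the vertical scale differs between panels. Hoxb2, Hoxb3, Hoxb4 and Hoxa7 lay below every control library in both mutants, and Hoxb5 to Hoxb8 lay above every control library in Hdac1-deficient enteroids. The share of all genes with such separate groups was not counted, so nothing is read from it.

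Hoxb2, the most 3′ of the genes described, is known for its part in patterning the hindbrain. It was counted 86, 69, 90 and 62 times in the control libraries, 4, 14, 1 and 7 times in the Hdac1-deficient and 16, 3, 3 and 9 times in the Hdac2-deficient libraries. Every mutant library was below every control library. The share of all genes whose groups lie apart in this way was not counted. Separation of groups is therefore a description only, for this gene and for those that follow. Its level was 2.72 ± 0.251 CPM (SD, n = 4) in the control group, against 0.223 ± 0.179 and 0.311 ± 0.223 CPM in the mutants, and its log2 fold change was -3.56 (standard error 0.29) for Hdac1 and -3.06 (standard error 0.27) for Hdac2. As pooled counts, Hoxb2 was 12.1-fold lower in Hdac1-deficient and 8.5-fold lower in Hdac2-deficient enteroids. The ratio of Hdac1-deficient to control was 0.0824, and 0.0519 without Hdac1-deficient replicate 2, which held the 14 counts.

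Hoxb3 had the smallest change of the 8 listed genes. The control libraries held 47, 43, 40 and 34 counts, the Hdac1-deficient libraries 18, 21, 26 and 16, and the Hdac2-deficient libraries 12, 10, 12 and 15. Here too the mutant libraries lay below all control libraries, at a pooled level 2.08-fold and 2.87-fold lower. The log2 fold changes were -1.04 (standard error 0.19) and -1.5 (standard error 0.22), and the first of these lies close to the limit of 1 used for a call, which it missed at -0.97 without Hdac1-deficient replicate 4.

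Hoxb4, which is best known from the expansion of blood stem cells, was counted 49, 32, 51 and 34 times in control. It had 20, 17, 16 and 10 counts in Hdac1-deficient and 15, 5, 15 and 10 counts in Hdac2-deficient libraries. Its groups again did not overlap with control. The log2 fold changes were -1.42 (standard error 0.23) and -1.64 (standard error 0.27), that is 2.71-fold and 3.17-fold lower as pooled counts. Hoxb2, Hoxb3 and Hoxb4 summed to 5.65 ± 0.477 CPM in control, and to 1.47 ± 0.209 and 1.30 ± 0.403 CPM without Hdac1 and Hdac2.

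Hoxb5, which lies across the 12.1 kb gap from Hoxb4, was counted 1, 0, 0 and 2 times in control and 6, 6, 18 and 6 times in the Hdac1-deficient libraries. No Hdac1-deficient library overlapped with control, although replicate 3 held 0.591 CPM against 0.194 to 0.225 CPM in the other 3. Since a group with 3 counts gives no firm ratio, only the pooled ratio with its counting interval is given, 11.7 (95% exact interval 3.69 to 59.3, counting error only), and it was 7.93 without Hdac1-deficient replicate 3 and 27.6 (4.65 to 1120) without control replicate 4. Its 2 control counts in replicate 4 and the depth of the libraries leave its control level near the value of single reads, since 1 count equals 0.0324 to 0.0485 CPM.

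Hoxb6 was the 5′ gene with the most counts, and the only one listed for both mutants. It was counted 1, 0, 0 and 3 times in control, 24, 31, 32 and 16 times in Hdac1-deficient and 8, 5, 4 and 7 times in Hdac2-deficient libraries. The 3 groups did not overlap with each other, the Hdac2-deficient libraries lying between control and the Hdac1-deficient libraries. The mean level was 0.0399 ± 0.0596, 0.884 ± 0.211 and 0.247 ± 0.0605 CPM. The pooled ratio to control was 25.1 (95% exact interval 9.49 to 93.7) in Hdac1-deficient and 6.99 (2.4 to 27.7) in Hdac2-deficient enteroids. Both ratios rest on 4 control counts, 3 of them in control replicate 4, and without that library they were 79.0 (13.9 to 3150) and 22 (3.59 to 906).

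Hoxb7 had no counts in the 4 control libraries, and 22, 16, 27 and 14 counts in the Hdac1-deficient libraries. Taking 3 counts over the control group, or 0.0267 CPM, as what a count of 0 allows, it was at least 25.6-fold higher. Hoxb8, known from myeloid progenitors, was counted 1, 0, 1 and 0 times in control and 4, 7, 21 and 3 times in Hdac1-deficient libraries, so that replicate 3 again stood highest. Its pooled ratio was 17.0 (95% exact interval 4.37 to 146), and 9.25 (2.12 to 83.8) without replicate 3.

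Hoxb5, Hoxb7 and Hoxb8 were not listed for Hdac2, which limits what can be said of them there. Only genes with at least 10 counts over the 8 libraries of a comparison were listed, so given their control counts the 4 Hdac2-deficient libraries together held at most 6 counts of Hoxb5, 9 of Hoxb7 and 7 of Hoxb8. Their pooled level in Hdac1-deficient enteroids was therefore at least 5.01-fold, 7.33-fold and 4.17-fold that in Hdac2-deficient enteroids, before counting error, and at least 3.4-fold, 6.55-fold and 2.27-fold without Hdac1-deficient replicate 3. Hoxb9 held at most 9 counts over the 8 libraries of either comparison, and a change in it was not detectable at this depth.

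**Figure D2:**
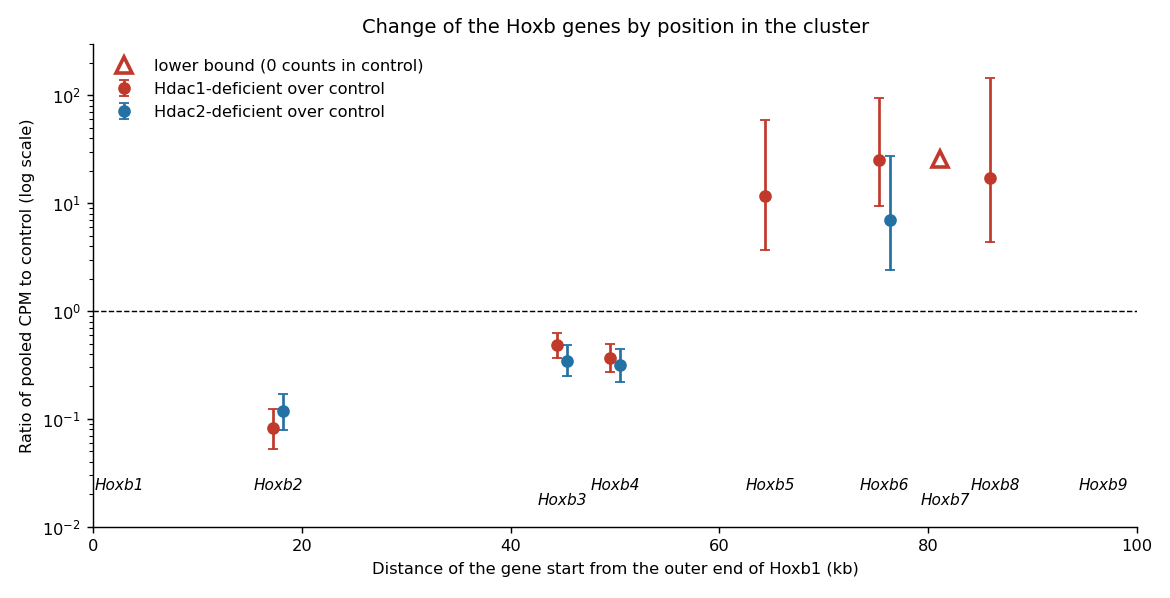
Ratio of the pooled CPM to control (vertical axis, log scale) against the distance of each gene's start from the outer end of Hoxb1 in kb (horizontal axis), for Hdac1-deficient (red) and Hdac2-deficient (blue) enteroids, with 95% exact counting intervals. The triangle is the lower bound of 25.6 for Hoxb7, whose control libraries had no counts, and genes not listed for Hdac2 have no blue point. The points of Hoxb2, Hoxb3 and Hoxb4 lie below 1 and those of Hoxb5 to Hoxb8 lie above it.

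Along the cluster, the direction of the difference changed once in Hdac1-deficient enteroids, between Hoxb4 and Hoxb5. The share of the counts on Hoxb2 to Hoxb8 that fell on the 5′ genes Hoxb5 to Hoxb8 was 1.62%, 0%, 0.549% and 3.70% in the control libraries. In the Hdac1-deficient libraries it was 57.1%, 53.6%, 69.5% and 54.2%. All 4 Hdac1-deficient libraries thus had the larger share of these counts on the 5′ genes, with a mean of 58.6% ± 7.43 (SD, n = 4) against 1.47% ± 1.63 in control. The 5′ genes summed to 2.17 ± 0.758 CPM in Hdac1-deficient enteroids, or 1.82 ± 0.357 CPM in the 3 libraries other than replicate 3, against 0.0857 ± 0.0927 CPM in control.

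Levels of different genes were compared per length, as CPM per kb of annotated exon. In Hdac1-deficient enteroids Hoxb6 and its 5′ neighbour Hoxb7 stood at 0.450 ± 0.108 and 0.443 ± 0.129 CPM per kb, with overlapping ranges. Hoxb5 and Hoxb8, on either side of this pair, were lower at 0.110 ± 0.0681 and 0.112 ± 0.102 CPM per kb, and neither reached the lowest library of Hoxb6 at 0.296 CPM per kb. In Hdac2-deficient enteroids Hoxb6 stood at 0.126 ± 0.0308 CPM per kb, whereas Hoxb7 was at most 0.0604, Hoxb8 at most 0.0275 and Hoxb5 at most 0.0223 CPM per kb over the pooled libraries. Hoxb6 was therefore above its 5′ and 3′ neighbours in the Hdac2-deficient group, by pooled values before counting error, while in the Hdac1-deficient group it was not distinguishable from Hoxb7.

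Hoxa7, the only gene described from HoxA, went the opposite way to its paralogue Hoxb7 in Hdac1-deficient enteroids. For Hdac2 the direction of Hoxb7 is not known. It was counted 70, 55, 61 and 39 times in control, 1, 0, 1 and 1 times in Hdac1-deficient and 7, 6, 5 and 8 times in Hdac2-deficient libraries. The 3 groups did not overlap. Mean levels were 1.98 ± 0.290, 0.0267 ± 0.0179 and 0.270 ± 0.0520 CPM in the same order. With 3 counts in the Hdac1-deficient group, the pooled ratio to control was 0.013 (95% exact interval 0.00266 to 0.0384), and for Hdac2 it was 0.135 (log2 fold change -2.86, standard error 0.24).

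Genes were called where edgeR's quasi-likelihood test over all genes gave an adjusted p no larger than 0.05 and the fold change exceeded 2. Of the 6 genes of the 9 that passed edgeR's filter on low counts for Hdac1, 4 were called lower and 2 (Hoxb6 and Hoxb7) higher, where 10.6% of all 14246 genes tested were called, 3.71% lower and 6.87% higher. For Hdac2, 4 passed the filter and all 4 were called lower, where 8.3% of 14007 genes were called, 2.84% lower and 5.45% higher. Because the genes were chosen with these contrasts known and a low gene passes the filter only through the group where it is high, nothing is read from these counts. With no filter, Hoxb5 and Hoxb8 were also called higher for Hdac1 and Hoxb6 for Hdac2. In that setting 1581 of 18676 genes were called higher for Hdac1. These calls rest on 3, 2 and 4 control counts, and nothing is read from them either. Both mutants were compared with the same 4 control libraries.

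The Hdac1-deficient libraries were also compared directly with the Hdac2-deficient libraries, a contrast that did not choose the genes but uses the same mutant libraries and so is not independent of that choice. In this comparison 5.62% of 14510 genes were called, 2.89% lower and 2.74% higher in Hdac1-deficient enteroids. The filter's limit is the level of 10 counts at the median library size. Of the 5 genes tested, Hoxa7 reached it only in the 4 control libraries and Hoxb6 only in the 4 Hdac1-deficient libraries. No test is therefore given for either gene. Hoxa7 held 3 counts in the Hdac1-deficient and 26 in the Hdac2-deficient libraries, a pooled ratio of 0.0963 (95% exact interval 0.0187 to 0.314). The pooled level of Hoxb6 was 3.58-fold higher without Hdac1 than without Hdac2 (95% exact interval 2.28 to 5.85). In both genes the 4 libraries of one mutant lay apart from the 4 of the other. The 3′ genes did not pass the test. The differences, as log2 fold changes with their 95% intervals, were -0.50 (-1.60 to 0.60) for Hoxb2, 0.46 (-0.06 to 0.98) for Hoxb3 and 0.22 (-0.46 to 0.90) for Hoxb4, with adjusted p = 0.47, 0.15 and 0.62 from edgeR. The libraries of the mutants overlapped for each of these 3 genes.

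**Figure D3:**
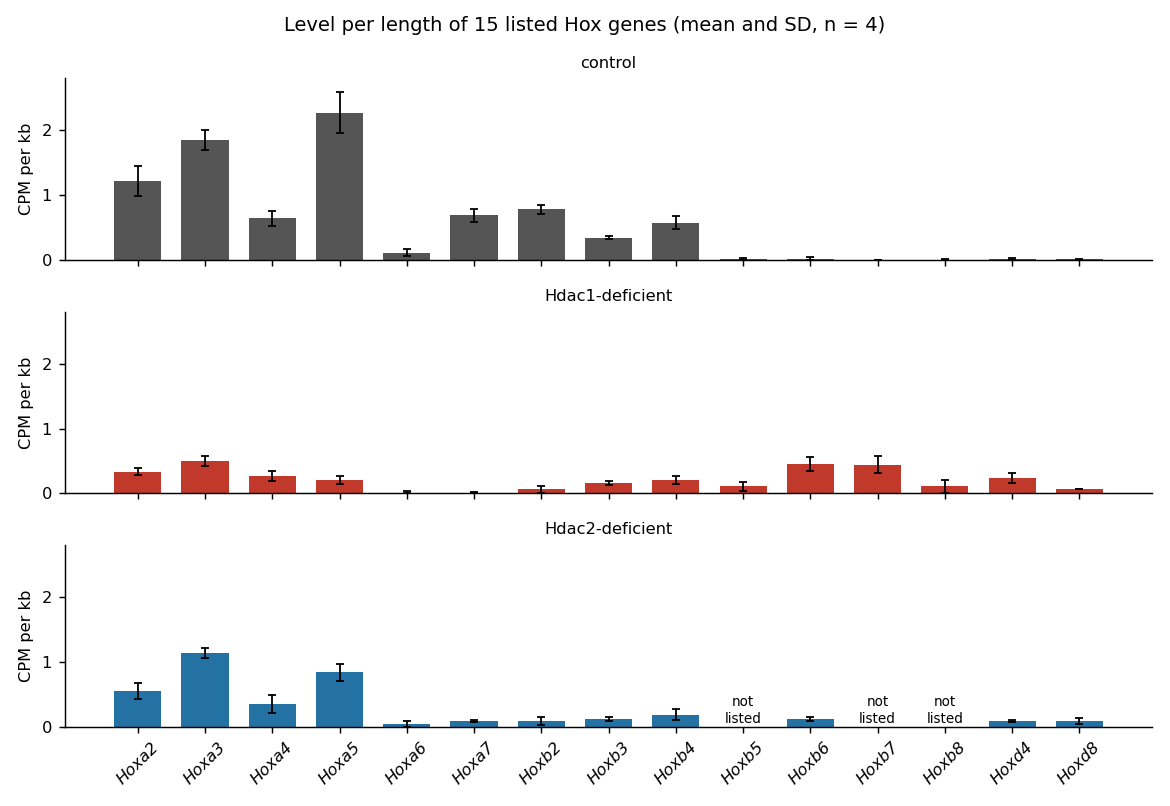
Level of 15 of the 16 listed Hox genes in CPM per kb of exon (vertical axis, bars from 0) in control (top), Hdac1-deficient (middle) and Hdac2-deficient (bottom) enteroids. Bars are means and lines are SD of 4 libraries. In control Hoxa5 stood highest at 2.27 CPM per kb and Hoxb5 to Hoxb8 were at or below 0.0203, and in Hdac1-deficient enteroids Hoxb6 and Hoxb7 stood at 0.450 and 0.443.

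Among the 16 Hox genes listed, the order of levels per length in control began with Hoxa5 (2.27 ± 0.315 CPM per kb), Hoxa3 (1.85 ± 0.161) and Hoxa2 (1.22 ± 0.226). Hoxb2 followed at 0.780 ± 0.0719, Hoxa7 at 0.690 ± 0.101, Hoxa4 at 0.644 ± 0.114, Hoxb4 at 0.573 ± 0.0995 and Hoxb3 at 0.343 ± 0.0258. The ranges of Hoxb2, Hoxa7, Hoxa4 and Hoxb4 overlapped from each to the next, while the highest Hoxb3 library (0.370) lay below the lowest of Hoxb4 (0.439). Hoxb6, Hoxb5, Hoxb8 and Hoxb7 were at 0.0203, 0.0105, 0.00631 and 0 CPM per kb, and these do not differ beyond their spread. In Hdac1-deficient enteroids Hoxb6 and Hoxb7 ranked 2nd and 3rd, with ranges that overlapped those of Hoxa3 (0.496 ± 0.0747) and Hoxa2 (0.336 ± 0.0584). Hoxa7 was at 0.00927 ± 0.00622 CPM per kb there and was not distinguishable from Hoxa6 at 0.0107 ± 0.0214, the pair having 3 counts and 1 count. In Hdac2-deficient enteroids Hoxb6 ranked 7th of 13, between Hoxb4 (0.186 ± 0.0870) and Hoxb3 (0.121 ± 0.0284), and its range overlapped both.

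Of the 30 other Hox genes of the annotation, 8 were listed, none of them from HoxB or HoxC. Of these, 5 were tested for Hdac1, of which 4 of HoxA fell and Hoxd4 was called higher, where 3.71% of all genes were called lower and 6.87% higher. The median log2 fold change of the 5 was -1.82 against -0.004 over all genes. Hoxa5 fell by 3.43 on the log2 scale (standard error 0.20), from 150, 109, 114 and 106 counts to 13, 14, 12 and 6. Hoxa3 fell by 1.87 (standard error 0.10), Hoxa2 by 1.82 (standard error 0.20) and Hoxa4 by 1.25 (standard error 0.25). The annotated span of Hoxa3 holds Hoxa4, Hoxa5 and Hoxa6 on the same strand. Whether reads of these genes were told apart was not tested. Hoxd4 held 2, 2, 0 and 0 counts in control and 22, 12, 24 and 24 in Hdac1-deficient libraries, and it passed the filter only through the latter. For Hdac2, 2 of 5 were called, where 8.3% of all genes were. Both fell, Hoxa5 by 1.42 (standard error 0.15) and Hoxa2 by 1.09 (standard error 0.20), with a median of -0.85 over the 5.

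When the mutants were compared directly, the Hdac1-deficient enteroids had less Hoxa5 and Hoxa3 than the Hdac2-deficient, by log2 fold changes of -2.01 and -1.20 with adjusted p = 1.0e-07 and 8.5e-10 (edgeR). Hoxd4 held 8, 5, 5 and 6 counts in the Hdac2-deficient libraries, fewer than in any Hdac1-deficient library, and since it passed the filter of this comparison too only through the Hdac1-deficient libraries no test is given for it.

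Antisense and other non-coding genes overlap several of the genes described. The kit used marks strand, but the strand setting of the counting is not given in the sources used here, so reads from a gene and its antisense partner may not have been told apart. Hoxb3os, on the minus strand, covers 100% of Hoxb2 and 19.7% of Hoxb3, and Gm11536 covers 23.6% of Hoxb3. Hoxb3os was counted 28, 28, 23 and 27 times in control, 4, 6, 7 and 5 times in Hdac1-deficient and 10, 4, 5 and 2 times in Hdac2-deficient libraries, a log2 fold change of -2.27 (standard error 0.28) and -2.09 (standard error 0.33). Hoxb5os covers 100% of both Hoxb5 and Hoxb6 and was not listed, so it held at most 9 counts over the 8 libraries of either comparison. Hoxaas3 overlaps 7.96% of Hoxa7.

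Of 43 non-coding genes inside the Hox clusters, 8 were listed and 4 tested. Of the 4, 3 were called for Hdac1 and 2 for Hdac2, where 10.6% and 8.3% of all genes were, and their median log2 fold changes were -2.28 and -1.19. Hoxb3os, Hoxaas3 and Hotairm1, the last an RNA of the 3′ end of HoxA, fell in Hdac1-deficient enteroids, and Hoxb3os and Hoxaas3 fell in Hdac2-deficient enteroids. Hoxaas3 had log2 fold changes of -2.29 (standard error 0.19) and -1.54 (standard error 0.15), and Hotairm1 had -2.58 (standard error 0.28) and -0.84 (standard error 0.20). None rose in either mutant.

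Outside the cluster, 18 protein-coding genes lie within 500 kb of either end of HoxB. Of the 13 tested, 2 were called higher in each mutant and none lower, which is near the 10.6% and 8.3% of all genes called and is not a result about these genes. Gip, the gene of an incretin hormone of enteroendocrine cells, rose from 17.9 ± 1.72 CPM to 49.9 ± 5.82 and 38.9 ± 3.00 CPM. Copz2, a coat protein gene, rose from 0.158 ± 0.0963 CPM to 0.484 ± 0.0344 and 1.14 ± 0.186 CPM, and with at most 9 counts in a control library it passed the filter only through the mutant libraries. The medians of the 13 were 0.12 and 0.22 on the log2 scale, against -0.004 over all genes tested in each comparison.

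TALE proteins (Pbx, Meis and Pknox) bind DNA together with Hox proteins, and 8 of 9 of their genes were tested. Of the 8, 4 were called for Hdac1 and 3 for Hdac2, where 10.6% and 8.3% of all genes were. Meis2 fell from 24.7 ± 1.11 CPM to 3.37 ± 0.870 and 4.23 ± 0.614 CPM, a log2 fold change of -2.88 (standard error 0.11) and -2.53 (standard error 0.08). Meis1 fell by 2.04 (standard error 0.32) and 1.93 (standard error 0.34) on the log2 scale. Meis3 rose from 0.318 ± 0.0572 CPM to 1.76 ± 0.175 and 1.89 ± 0.288 CPM. Pbx4 was called higher for Hdac1, by a log2 fold change of 1.14 (standard error 0.14). For Hdac2 it moved the same way within the limit for a call, at 0.75 (standard error 0.13). Between the mutants none of the 8 was called by edgeR, and 2 passed an adjusted p of 0.05 without the limit on the fold change. A larger share of all genes passed in that setting, so nothing is read from this count.

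Of the 17 genes taken as Cdx and retinoic acid inputs, 9 were tested. Of the 9, 2 were called for Hdac1 and 1 for Hdac2, all lower, where 3.71% and 2.84% of all genes were called lower. Cdx2, the caudal factor of intestinal identity, stood at 262 ± 4.50, 262 ± 5.83 and 257 ± 4.13 CPM in control, Hdac1-deficient and Hdac2-deficient enteroids. Rarb, a retinoic acid receptor gene, fell from 5.35 ± 0.517 to 1.09 ± 0.268 CPM in Hdac1-deficient enteroids and stood at 3.78 ± 0.472 CPM in Hdac2-deficient enteroids. Cyp26b1, which encodes an enzyme that breaks down retinoic acid, fell from 57.7 ± 6.02 CPM to 9.41 ± 2.05 and 25.1 ± 2.44 CPM. Both were lower in the Hdac1-deficient group when the mutants were compared directly. The log2 fold changes were -1.78 (adjusted p = 6.5e-10, edgeR) for Rarb and -1.41 (adjusted p = 1.3e-05, edgeR) for Cyp26b1. A link to the Hox genes was not tested.

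**Figure D4:**
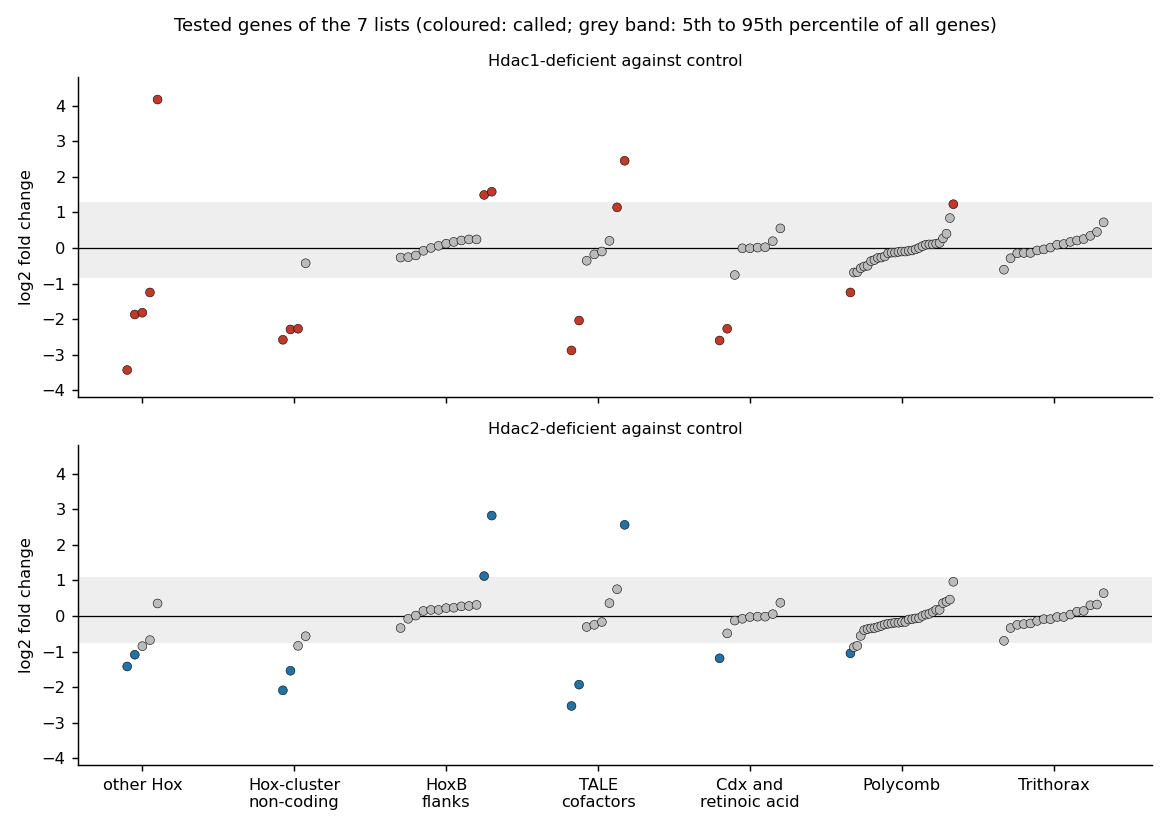
Log2 fold change against control (vertical axis) of each tested gene of the 7 lists, in Hdac1-deficient (top) and Hdac2-deficient (bottom) enteroids. Coloured points were called, grey points were not, and the band spans the 5th to 95th percentile of all tested genes. Points of the Polycomb and Trithorax lists lie mostly inside the band, and each of the other 5 lists has points beyond it, among them Gip and Copz2 of the genes flanking HoxB.

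Of 31 Polycomb genes tested, 2 were called for Hdac1 and 1 for Hdac2, and of 16 Trithorax genes 0 were called in either mutant by edgeR. Beside the 10.6% and 8.3% of all genes called, these counts are not a result about the lists. Cbx7 (log2 fold change 1.23, standard error 0.06) was called higher and Pcgf5 (-1.25, standard error 0.05) lower in Hdac1-deficient enteroids. Phf19 (-1.05, standard error 0.07) was called lower in Hdac2-deficient enteroids. In the other mutant Cbx7, Pcgf5 and Phf19 moved the same way within the limit for a call, at 0.96, -0.84 and -0.68. None of them was called between the mutants. The core genes of Polycomb repressive complex 2 were lower by less than the limit for a call, with log2 fold changes of -0.34 and -0.37 for Ezh2, -0.15 and -0.19 for Eed and -0.28 and -0.24 for Suz12. The list medians were -0.10 and -0.17. The Trithorax medians were 0.05 and -0.06, and without the limit on the fold change 8 of the 16 passed an adjusted p of 0.05 (edgeR) in each. In that setting 4540 genes were lower and 4656 higher of all 14246 tested for Hdac1, a larger share. The share of all genes was also larger for Hdac2, so nothing is read from these counts.

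Markers of cells other than epithelium were low. Of 12 fibroblast and smooth muscle markers, 8 were in neither table, among them Col1a2, Col3a1, Dcn, Acta2 and Des, and the list summed to 1.22 to 1.62 CPM (control), 1.84 to 2.27 CPM (Hdac1-deficient) and 0.958 to 1.60 CPM (Hdac2-deficient). Endothelial markers summed to 0.330 to 0.937 CPM over the 12 libraries, with Cdh5 and Kdr in neither table. Immune markers summed to 1.12 to 1.61 CPM in control and 2.27 to 3.52 CPM in both mutants, with Cd3e in neither table, and markers of enteric neurons and glia summed to 8.49 to 9.11 CPM in control and 4.65 to 6.80 CPM in both mutants, with Sox10 and Gfap in neither table. The fibroblast, immune and neuronal sums were each carried mostly by 1 gene. In the fibroblast list Pdgfrb stood at 1.23, 1.79 and 1.15 CPM in control, Hdac1-deficient and Hdac2-deficient enteroids and was not called, while Pdgfra stood at 0.0762, 0.0663 and 0.0461 CPM. In the immune list Itgam rose from 0.834 to 2.03 and 2.68 CPM, while Csf1r stood at 0.411, 0.730 and 0.146 CPM. In the neuronal list Ret stood at 7.91, 4.76 and 4.73 CPM and was not called, while Elavl4 stood at 0.0277, 0.130 and 0.0976 CPM. The part of these genes in the Hox results was not tested. In such bulk libraries fewer cells of a type and less RNA per cell cannot be told apart.

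Marker genes of gut segments were also counted, since Hox levels differ along the gut. The 7 proximal markers summed to 2290 to 2590 CPM (control), 3110 to 3390 CPM (Hdac1-deficient) and 3160 to 3410 CPM (Hdac2-deficient). The 6 distal markers, with Car1 in neither table, summed to 22.8 to 26.4 CPM, 39.3 to 41.9 CPM and 25.7 to 27.3 CPM. Lct, the lactase gene, rose in both mutants (log2 fold change 2.86 and 2.03), and Slc40a1 and Cybrd1, of iron transport, fell in Hdac1-deficient enteroids (-1.15 and -1.21). Pdx1 rose in Hdac2-deficient enteroids (1.51) and Aqp8 rose in both mutants (1.38 and 1.53). Slc10a2, the ileal bile acid transporter gene, was higher in both mutants (0.83 and 1.03), and only the second value passed the limit for a call. Both the proximal and the distal sums were thus higher in Hdac1-deficient enteroids, but they were carried mostly by Fabp1 and Osr2, respectively. Fabp1 stood at 1700, 2550 and 2400 CPM in control, Hdac1-deficient and Hdac2-deficient enteroids, and Osr2 at 17.8, 31.8 and 19.3 CPM. For Hdac1 the median log2 fold change was -0.02 for the proximal and 0.84 for the distal list. The part of these genes in the Hox results was not tested.

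The 5 genes whose pattern over the 12 libraries was nearest to that of Hoxb2 and of Hoxb6 were found among 14510 genes, by the root mean square difference of log2 CPM centred on each gene's control mean. For Hoxb2 they were Slc16a12 (0.638), Gm14403 (0.663), Esrrb (0.674), Gm5540 (0.674) and Ces2d-ps (0.684). Slc16a12, a transporter of the monocarboxylate family, went from 122 ± 2.34 CPM to 9.93 ± 0.366 and 16.6 ± 1.12 CPM. For Hoxb6 they were Psmb8 (0.410), Zfp503 (0.427), Clca4a (0.457), Gbgt1 (0.497) and Ptpn22 (0.511). Psmb8, a subunit of the immunoproteasome, went from 0.747 ± 0.159 CPM to 8.93 ± 0.740 and 3.17 ± 0.353 CPM. The search held only genes listed for both mutants, which leaves out Hoxb5, Hoxb7 and Hoxb8. No Hox gene was among these 10, and the low counts of Hoxb2 and Hoxb6 add to every one of these distances.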

How the data were processed

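The data are RNA-Seq gene counts of 12 libraries, grouped by the genotype in their labels. RNA was poly(A) selected, only samples of adequate RNA integrity were sequenced, and libraries were made with a directional kit. The authors aligned paired reads to GRCm38 with STAR (2.4.0f1 in the submitters' processing notes) and deposited, for each mutant, whole-number counts per gene that are not normalized, for genes with at least 10 counts over the 8 libraries. The counting program is not given in the sources used here. The control counts are the same in both tables. The authors also deposited a normalized score (the count times 1 factor per library, rounded) and their own fold changes and p-values, which were not used.

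Counts were fitted with edgeR 4.0.16 (limma 3.58.1, R 4.3.3) by the robust quasi-likelihood F test with TMM factors and filterByExpr, with Benjamini-Hochberg adjustment over all tested genes, in fits of 8 libraries per mutant and of 12 libraries for the direct comparison. CPM used TMM factors of 0.9809 to 1.02. Pooled ratios are summed counts over summed library sizes, with 95% exact (Clopper-Pearson) intervals that cover counting error only, and 3 counts over a group stand for a count of 0. GENCODE M21 (99.41% of identifiers matched) gave positions and exon lengths. In simulated data, 100% of 200 genes changed by 2 on the log2 scale were called in each comparison, with 0, 0 and 1 unchanged genes called. The changed genes were drawn only from genes with mean counts above those of most of the genes described. Recovery at the low counts of the genes described was therefore not checked.

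The genes described and the gene lists were chosen with earlier results of these data known. The genes named were all 9, the targeted genes, the called genes of each list with the largest changes (up to 3 per direction and mutant) and the 5 nearest patterns. Members of the lists named beyond that, such as Cdx2, Ezh2, Eed and Suz12, Hoxa6 and Hoxd8, were chosen after their values were seen. Results on some genes and sequences are not reported here. Shared runs and motifs were searched with Python 3.11.15, pandas 2.3.3 and numpy 2.4.6, intervals came from scipy 1.17.1 and figures from matplotlib 3.10.9. Pooled ratios were also computed with each library left out, a choice made after seeing the data. Alternatives were DESeq2 1.42.0, other size factors, other filters, no fold limit, 1 fit of all libraries, the replicate number as a block and each library left out in turn.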

Additional observations from a re-analysis of the deposited data

Results flagged for a closer look

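Each group of 4 libraries was checked for 1 library far from the other 3, and 13 of 164 such groups had one. Chance alone marks about 1 in 20 groups of normally distributed values. Some of the 13, such as Hoxa7, Hoxa6 and Esrrb, rest on counts of 0 and 1, for which this rate does not hold. The 13 are therefore not set against it. Of the genes described, Hoxb5 stood at 0.591 CPM in Hdac1-deficient replicate 3, against at most 0.225 CPM in the other 3, and Hoxa7 stood at 0 CPM in Hdac1-deficient replicate 2, where the other 3 libraries held 1 count each. Hdac1-deficient replicate 3 also had the most counts of the 4 for Hoxb6 (32), Hoxb7 (27) and Hoxb8 (21), and the fewest for Hoxb2 (1). It had the most for Hoxb3 too (26), and its summed counts of Hoxb2 to Hoxb4 (43) lay within the group's range of 33 to 52.

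Among other Hox genes, Hoxa3 was highest in control replicate 4 at 12.6 CPM, and Hoxa6 was at 0.0375 CPM in Hdac1-deficient replicate 1, the only one of that group with a count. Control replicate 4 also stood apart for Meis1 at 1.05 CPM and Pcgf5 at 40.6 CPM, and control replicate 1 for Copz2 at 0.301 CPM and Itgam at 0.938 CPM. Hdac2-deficient replicate 4 stood apart for Cyp26b1 at 21.5 CPM and Ezh2 at 81.9 CPM, and Hdac1-deficient replicate 3 for Slc10a2 at 1.25 CPM. Esrrb had its 1 count per group in replicate 1 of each mutant, at 0.0375 CPM for Hdac1 and 0.0368 CPM for Hdac2.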

How the results depend on the processing

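The log2 fold changes of the genes described gave 238 values under the alternatives, of which 235 kept their direction and their side of the threshold. Hoxb3 for Hdac1 fell short of the fold limit without Hdac1-deficient replicate 4. Between the mutants, 2 uncalled values changed sign, that of Hoxb2 to 0.05 without Hdac2-deficient replicate 1 (range -1.14 to 0.05 with each library left out) and that of Hoxb4 to -0.05 without Hdac2-deficient replicate 2 (range -0.05 to 0.46). The called genes numbered 3 to 4 lower and 2 higher for Hdac1 with each library left out, and 4 lower for Hdac2.

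With no filter on low counts, all genes called higher numbered 1581 for Hdac1, and 622 were lower and 1170 higher for Hdac2. Of the genes described, 4 were then called higher for Hdac1 and 1 for Hdac2, since more of them were tested. The other Hox genes called became 8 and 4, the Cdx and retinoic acid genes 2 for Hdac2 and the non-coding genes 2 between the mutants. With a mean of at least 10 counts, 1 of the genes described was called higher for Hdac1 and 1 flanking gene was called. With all 12 libraries in 1 fit, 1 was called higher for each mutant. That fit holds genes listed for both mutants, which leaves out Hoxb7.

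With no limit on the fold change, 4540 genes were lower and 4656 higher for Hdac1, 4327 and 4402 for Hdac2, and 3436 and 3229 between the mutants. For Hdac1, 8 flanking, 7 TALE, 5 Cdx and retinoic acid, 22 Polycomb and 8 Trithorax genes then passed. For Hdac2, 4 other Hox, 4 non-coding, 11 flanking, 8 TALE, 3 Cdx and retinoic acid, 24 Polycomb and 8 Trithorax genes passed. Between the mutants, 2 non-coding, 6 flanking, 2 TALE, 5 Cdx and retinoic acid, 17 Polycomb and 5 Trithorax genes passed.

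With each library left out in turn, the other Hox genes called for Hdac2 ranged from 1 (without control replicate 4) to 3, Polycomb genes for Hdac2 from 0 (without Hdac2-deficient replicate 1) to 1, and non-coding genes between the mutants from 1 to 2 (without Hdac1-deficient replicates 1 or 4 or Hdac2-deficient replicates 3 or 4). The cause was not tested.

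The labels number the replicates of every group from 1 to 4, and the deviations of same-numbered libraries correlated at -0.05 to 0.09. The main fits therefore used no pairing, and whether same-numbered libraries were handled together is not known. With the replicate number as a block, 523 genes were lower and 978 higher for Hdac1, and Hoxb6 between the mutants had a log2 fold change of 1.82. No call of a gene described or of a list changed under the block. Some libraries correlated best with their own number and others did not.

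Leaving out Hdac1-deficient replicate 3, an alternative chosen after seeing the data, moved the mean of Hoxb5 to 0.212 CPM and that of Hoxb8 to 0.162 CPM. The counts of Hoxb5 to Hoxb8 in control, 9 in all, set the precision of their ratios.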

Other observations

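Hoxd8, a gene of the HoxD cluster that was not tested at the filter used, was counted 0, 2, 1 and 0 times in control, 5, 6, 6 and 5 times in Hdac1-deficient and 8, 3, 8 and 4 times in Hdac2-deficient libraries. Hoxa6, the 3′ neighbour of Hoxa7, was counted 1, 3, 4 and 3 times in control, 1, 0, 0 and 0 times in Hdac1-deficient and 0, 0, 1 and 2 times in Hdac2-deficient libraries. The Hoxd8 groups did not overlap with control in either mutant, and the Hoxa6 groups overlapped with control in both.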
